A study of Homo sapiens with 4 samples.

Results

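The genes described here are those of NF-kappaB, cytokine and TNF receptor signalling in 92.1, an established cell line from uveal melanoma, a tumour of the pigment cells of the eye. Members were taken by gene symbol alone, as the symbols that start with NFKB, TNFAIP, TNFRSF, TNFSF, CXCL, IRAK, TLR or IKBK, or with TRAF, CCL or IL and a digit, together with CHUK, RELA, RELB, REL, BIRC3 and ICAM1. The death receptors TNFRSF10A and TNFRSF10B were left out. Of 207 protein-coding genes that the rule fits in GENCODE release 29, 65 had a value among the 11650 genes of the files, and 51 of these averaged 1 FPKM or more across libraries and were tested. FPKM is the number of fragments scaled to transcript length and to library size, so levels of different genes can be set side by side on it. By role, 11 members were ligands or soluble binding proteins, 24 were receptors and 30 were signal proteins or induced genes. The groups were 2 libraries of parental cells and 2 libraries of cells that the labels call resistant, with no agent, dose or time given, and both groups carry the same line name in their titles. The cell line label itself reads 92.1 and 93.1 for the parental and 94.1 and 95.1 for the resistant libraries, and all were taken as 92.1 after the titles. The labels do not say if a group holds separate cultures, or if the resistant cells were a clone or a pool.

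NF-kappaB is a family of paired transcription factors built from the subunits RELA, RELB, REL, NFKB1 and NFKB2. In resting cells inhibitor proteins of the I-kappaB family hold them in the cytoplasm. Cytokines of the TNF and interleukin families and microbial products bind receptors whose adaptors, the TRAF and IRAK proteins, activate the I-kappaB kinases, after which the inhibitor is degraded and the factor enters the nucleus. Among its known targets are chemokines such as CXCL8 and CXCL1, and its own inhibitors.

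Promoters of 4 members are shown. CXCL8, CXCL1 and NFKBIZ lay higher in both resistant libraries, while the groups overlapped for NFKBIA. They do not stand for all known targets of the factor, as ICAM1 lay lower in both resistant libraries. Each is the 250 bases before the gene's start in RefSeq on GRCh38.p14, written 5′ to 3′ on the strand of the gene. Capitals mark matches to the kappaB consensus of 10 bases or to GGAANTTCC.
CXCL8 promoter, chr4:73740319-73740568, plus strand: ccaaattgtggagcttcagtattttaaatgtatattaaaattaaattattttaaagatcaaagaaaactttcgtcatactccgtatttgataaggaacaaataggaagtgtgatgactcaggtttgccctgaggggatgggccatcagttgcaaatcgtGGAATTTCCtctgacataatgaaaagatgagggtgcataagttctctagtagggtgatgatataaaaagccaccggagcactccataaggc
CXCL1 promoter, chr4:73869143-73869392, plus strand: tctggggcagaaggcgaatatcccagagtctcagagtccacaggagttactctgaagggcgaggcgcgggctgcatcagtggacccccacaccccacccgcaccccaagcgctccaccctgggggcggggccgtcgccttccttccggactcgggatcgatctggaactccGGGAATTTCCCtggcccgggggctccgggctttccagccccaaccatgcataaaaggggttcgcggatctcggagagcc
NFKBIZ promoter, chr3:101827740-101827989, plus strand: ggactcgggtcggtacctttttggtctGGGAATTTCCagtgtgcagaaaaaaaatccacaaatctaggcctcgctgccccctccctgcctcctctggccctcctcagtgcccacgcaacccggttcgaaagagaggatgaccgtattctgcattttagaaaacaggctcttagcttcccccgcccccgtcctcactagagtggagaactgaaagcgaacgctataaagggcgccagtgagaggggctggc
NFKBIA promoter, chr14:35404750-35404999, minus strand: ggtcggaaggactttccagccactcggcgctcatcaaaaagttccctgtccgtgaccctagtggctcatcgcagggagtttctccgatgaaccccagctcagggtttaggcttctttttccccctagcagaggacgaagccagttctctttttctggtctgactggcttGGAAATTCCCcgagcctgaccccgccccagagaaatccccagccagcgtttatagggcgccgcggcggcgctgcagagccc

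All 4 windows held a match, the 3 genes that lay higher and the gene that did not. Windows of the known targets ICAM1, lower in both resistant libraries, and TNFAIP3, level between groups, held a match too. Both motifs were searched on both strands, and a match to the shorter one often lies inside a match to the longer one. Either motif occurred in 31.7% of 82 windows of members, against 10.4% of all 35116 promoter windows in the RefSeq table and 12.3% of the 13804 windows of genes with an FPKM value. Windows were found for 53 of the 65 members, and NFKBIZ has 2, of which the first is printed. Counted by gene, 23 of these 53 members had a match in any window. The shares above are per window, so the counts by gene that follow cannot be set against them. A match fell in 5 of 6 inhibitor genes with a window, counting the I-kappaB family and TNFAIP3 together (NFKBIA, NFKBIB, NFKBID, NFKBIZ and TNFAIP3), in 3 of 4 subunit genes (NFKB1, NFKB2 and REL) and in 4 of 8 ligand genes (CXCL1, CXCL8, IL17D and IL32). It fell in 7 of 18 receptor genes and in 2 of 14 genes of adaptors and kinases. The 21 tested members with a match had a median log2 fold change of 0.01 between resistant and parental libraries, and the 23 with a window but no match had a median of -0.20. Over all genes tested the median was -0.08, between these values. The matched members include NFKBIZ, which passed the filter only through its resistant mean, so the medians describe the tested members and support nothing further. A match is a run of letters and no measure of binding.

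No member passed the test over all genes, in either direction. The test was limma on log2(FPKM + 1) with Benjamini-Hochberg adjustment over all 10271 genes tested, of which 6 (0.0584%) passed at 0.05. At an unadjusted limma p under 0.05, 4 members were higher (CXCL8, TNFRSF12A, NFKBIZ and IRAK4) and 6 were lower (TRAF2, TRAF3IP2, TNFRSF19, IL1RAP, ICAM1 and NFKBIL1) in resistant libraries. The same holds for 6.06% of all genes tested in the higher direction and 10.2% in the lower direction. Thus 19.6% of tested members reached an unadjusted p under 0.05, against 16.2% of all genes. The balance of directions moved with scaling, to 7 higher and 5 lower members with median-of-ratios scaling, and to 6 and 4 after quantile normalization. Over all genes the share on the higher side was 37.3%, then 50.8% under median-of-ratios scaling and 47.6% after quantile normalization. Without resistant replicate 1 the count of members was 20 (39.2%, beside 35.4% of all genes), and without parental replicate 1 it was 3 (5.88%, beside 6.81% of all genes). The calls over all genes numbered 30 without either parental replicate, 1 without resistant replicate 1 and 0 without resistant replicate 2 (3634 and 2195 genes at an unadjusted limma p under 0.05), and no member was among them under any of these.

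Of 7 tested ligands 4 had a log2 fold change above 0 and 3 below, of 16 receptors 8 lay on each side, and of 28 signal proteins 10 lay above and 18 below. The share below 0 was 64.3% for signal proteins, beside 58.6% of all genes tested. The signal proteins counted here include the 3 induced genes, all of which lay below 0. The median log2 fold change was 0.31 over 7 tested ligands, -0.02 over 16 receptors and -0.17 over 28 signal proteins, beside -0.08 over all 51 tested members and -0.08 over all genes tested. A low gene passes the filter more easily when it is high in 1 group, as CCL2 and NFKBIZ did, so these medians describe the tested members and support nothing further. Groups did not overlap for 9 members higher in resistant libraries (19.1% of all genes) and 16 lower (31.8% of all genes). Of the tested ligands 3 lay higher and 2 lower in this way, of the receptors 3 and 5, and of the signal proteins 3 and 9, where 9 is 32.1% of them.

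**Figure D1:**
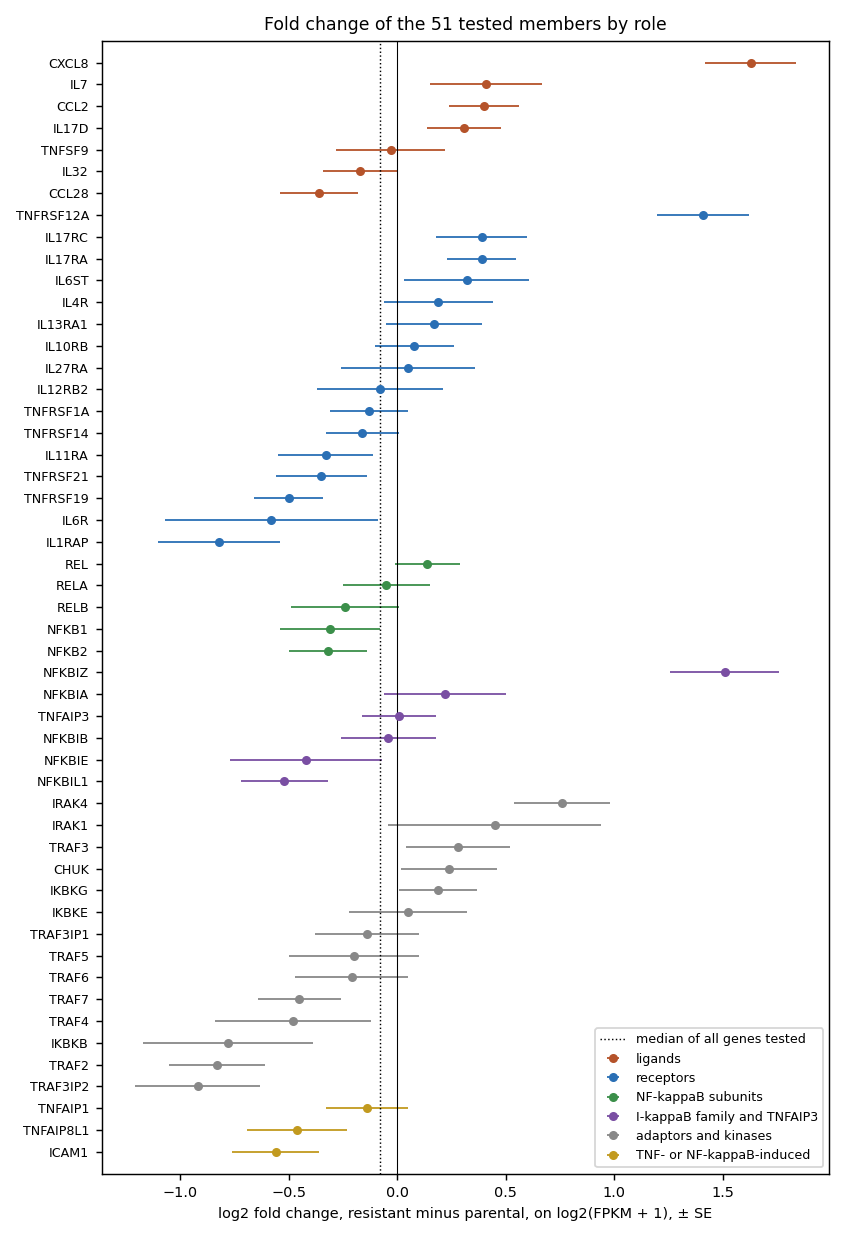
Log2 fold change (resistant minus parental on the log2(FPKM + 1) scale, bars ± SE from limma) of the 51 tested members, coloured by role, with a dotted line at the median of all genes tested (-0.08). CXCL8, NFKBIZ and TNFRSF12A stand at 1.63, 1.51 and 1.41, and no other member exceeds 0.76 (IRAK4).

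The ligand furthest apart was CXCL8, a chemokine that attracts neutrophils. It stood at 0.834 and 1.42 FPKM in parental cells, against 5.37 and 5.71 FPKM in resistant cells. Both resistant libraries lay above both parental ones, by 4.91 times between the means (1.13 ± 0.416 and 5.54 ± 0.239 FPKM, SD, n = 2 each). The log2 fold change was 1.63 ± 0.21 SE, with a limma adjusted p of 0.0788, and 0.0803 to 0.109 over the alternatives that kept all 4 libraries. Without single libraries the log2 fold change ran from 1.43 to 1.83. CXCL8 lies on chromosome 4 from 73740506 to 73743716.

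CXCL1, a chemokine of the same family whose gene lies downstream of CXCL8 on chromosome 4, was listed at 0 in both parental libraries and stood at 0.295 and 1.75 FPKM in resistant cells. Its mean was below the filter. In the fit with no filter its log2 fold change was 0.92 ± 0.36 SE (limma adjusted p = 0.29), with the resistant libraries far from each other. It has close relatives in the same cluster, so its share of fragments is uncertain, and an exact 0 may be a failed estimate. CXCL16, a chemokine made as a membrane protein, stood at 0.377 and 0.162 FPKM in parental and 0.455 and 0.696 FPKM in resistant libraries and was not tested either, and its exons overlap those of MED11 on the other strand. CCL2, which attracts monocytes, stood at 0.698 and 0.864 FPKM in parental and 1.48 and 1.22 FPKM in resistant libraries. Its log2 fold change of 0.40 ± 0.16 SE (limma adjusted p = 0.317) was 0.72 with a pseudocount of 0.1. For all 4 of these chemokines the lower resistant value exceeded the higher parental value, as for 19.1% of all genes tested. The chemokine CCL28 was lower in both resistant libraries. CXCL8 and CCL2 did not pass, and CXCL1 and CXCL16 were not tested. Both untested genes have a value only through their resistant means (1.02 and 0.575 FPKM, parental 0 and 0.269 FPKM). Genes whose larger group mean is below 0.5009 FPKM have no value.

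The mucosal chemokine CCL28 went the other way, from 5.4 and 4.95 FPKM in parental to 3.81 and 3.78 FPKM in resistant libraries (log2 fold change -0.36 ± 0.18 SE, limma adjusted p = 0.37). IL17D, a cytokine of the interleukin 17 family, stood at 1.77 and 1.69 FPKM in parental and 2.49 and 2.27 FPKM in resistant libraries. IL32, a proinflammatory cytokine, stood at 1.47 and 1.87 against 1.35 and 1.4 FPKM. The groups of each of these 3 genes were apart by small amounts. TNFSF9, the ligand of the costimulatory receptor TNFRSF9 and the only member among the TNFSF ligands, overlapped between groups (4.77 and 5.61 against 4.01 and 6.35 FPKM). The lymphoid growth factor IL7 stood at 2.43 FPKM in resistant replicate 1 and at 0.92 to 1.16 FPKM in the other libraries, so its log2 fold change of 0.41 was 0.07 without that library. The alarmin IL33 stood at 0.971 FPKM in the same library and at 0.117 to 0.341 FPKM elsewhere, and has a value only through its resistant mean (0.638 FPKM, parental 0.229 FPKM). IL18BP, a soluble binder of another interleukin, was under 1 FPKM in all libraries and overlapped.

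**Figure D2:**
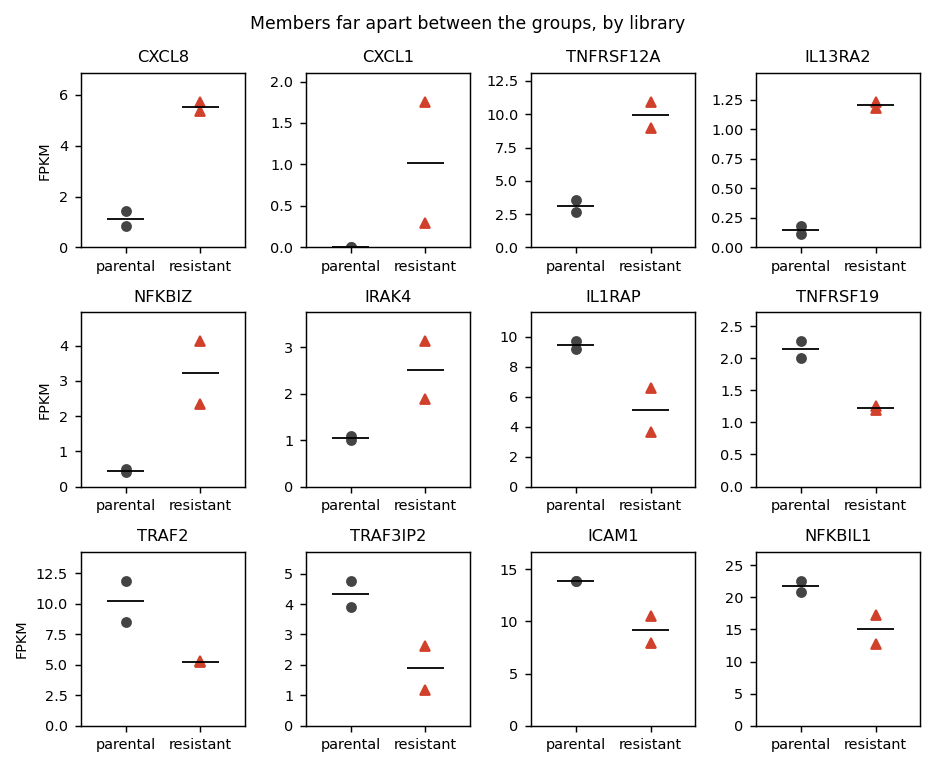
FPKM of 12 members in each library (circles parental, triangles resistant, bars the group means, linear axes from 0). The first 6 panels show genes higher in both resistant libraries and the last 6 genes lower in both, with the resistant libraries far apart for CXCL1, NFKBIZ, IRAK4, IL1RAP and TRAF3IP2.

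Among the TNF receptors, TNFRSF12A, the receptor for the cytokine TWEAK, stood apart from the others. It stood at 3.54 and 2.68 FPKM in parental cells, against 10.9 and 8.98 FPKM in resistant cells. Both resistant libraries lay above both parental ones, 3.19 times higher between the means (3.11 ± 0.61 and 9.93 ± 1.34 FPKM, SD, n = 2 each). The log2 fold change was 1.41 ± 0.21 SE (limma adjusted p = 0.103, and 0.0898 to 0.126 over the alternatives that kept all 4 libraries). Without single libraries it ran from 1.26 to 1.57. The gene lies on chromosome 16 from 3018445 to 3022383, and its ligand gene TNFSF12 was not analysed here. TNFRSF19, a receptor of the same superfamily expressed in development, lay lower in both resistant libraries, at 1.25 and 1.19 FPKM against 2.26 and 2.01 FPKM (log2 fold change -0.50 ± 0.16 SE, limma adjusted p = 0.259, and -0.76 with a pseudocount of 0.1).

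None of the other TNF receptors among the members passed. TNFRSF14, the receptor for LIGHT, was the most abundant receptor of the members, at 25.7 and 22.2 FPKM in parental and 22.4 and 20.3 FPKM in resistant libraries, and its groups overlapped. TNFRSF21, a receptor with a death domain, stood at 14.4 and 13.6 against 12.6 and 9.24 FPKM, and its log2 fold change of -0.35 was -0.15 without resistant replicate 2. TNFRSF1A, the main receptor for TNF on most cells, stood at 6.96 and 7.26 against 6.9 and 5.91 FPKM. Neither passed (limma adjusted p = 0.449 and 0.747). The decoy receptor TNFRSF11B was low but higher in both resistant libraries, at 0.407 and 0.327 against 0.666 and 0.592 FPKM. It has a value only through its resistant mean (0.629 FPKM, parental 0.367 FPKM), as genes whose larger group mean is below 0.5009 FPKM have none. TNFRSF13C, known from B cells, stayed under 1 FPKM with overlap, and neither of these low genes was tested.

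Among the interleukin receptors chains lay on both sides and none passed. IL13RA2, a decoy receptor for an interleukin, stood at 0.117 and 0.181 FPKM in parental cells, against 1.18 and 1.23 FPKM in resistant cells, 8.1 times higher between the means. The gene was picked after its values were seen. It has a value only through its resistant mean (1.21 FPKM, parental 0.149 FPKM), as genes whose larger group mean is below 0.5009 FPKM have none. Its mean of 0.677 FPKM was below the filter, and in the fit with no filter the log2 fold change was 0.94 ± 0.13 SE (limma adjusted p = 0.0986). The signalling chains that bind the same cytokines overlapped between groups, IL13RA1 at 10.4 and 9.84 against 13.7 and 9.66 FPKM and IL4R at 0.603 and 1.19 against 1.51 and 0.809 FPKM. IL13RA2 lies on chromosome X from 115003975 to 115019977.

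IL1RAP, the accessory chain shared by receptors of the interleukin 1 family, was lower in both resistant libraries. It stood at 9.17 and 9.67 FPKM in parental and 3.61 and 6.58 FPKM in resistant libraries (log2 fold change -0.82 ± 0.28 SE, limma adjusted p = 0.274). The resistant libraries differed from each other, and without resistant replicate 1 the log2 fold change was -0.46. IL17RA and IL17RC, which form a receptor for interleukin 17, stood at 1.61 and 1.7 against 2.4 and 2.53 FPKM and at 1.69 and 1.45 against 1.94 and 2.85 FPKM. Both were higher in both resistant libraries by 0.39 on the log2 scale and did not pass (limma adjusted p = 0.331 and 0.408), and without resistant replicate 2 the IL17RC value was 0.19. IL17RD, an inhibitor of growth factor signalling in the same family, stood at 0.742 and 0.608 against 0.558 and 0.0908 FPKM and was not tested. IL20RB, a chain for interleukins of epithelia, stood at 0.613 to 0.761 FPKM and was not tested.

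The receptors of the interleukin 6 family depended on the library. IL6ST, the signal chain gp130 that the family shares, stood at 10.2 and 11 FPKM in parental, 17.9 FPKM in resistant replicate 1 but 10.1 FPKM in replicate 2. The binding chain IL6R stood at 3.84 and 2.96 FPKM in parental, 0.751 FPKM in resistant replicate 1 but 3.89 FPKM in replicate 2. In both genes resistant replicate 2 lay near the parental libraries, and without resistant replicate 1 the log2 fold changes went from 0.32 to -0.07 (IL6ST) and from -0.58 to 0.16 (IL6R). IL11RA, the binding chain for a relative of the same cytokine, stood at 4.33 and 3.39 against 3.34 and 2.42 FPKM, and its exons overlap those of GALT on the same strand. The remaining chains IL10RB, IL12RB2 and IL27RA overlapped between groups, with log2 fold changes from -0.08 to 0.08. TLR1, TLR2 and TLR3, receptors for microbial products, ranged from 0.364 to 1.1 FPKM over the 4 libraries and were below the filter.

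The NF-kappaB subunits were all expressed at a few FPKM, and none passed. NFKB2 stood at 5.73 and 5.15 FPKM in parental and 4.13 and 4.16 FPKM in resistant libraries (log2 fold change -0.32 ± 0.18 SE, limma adjusted p = 0.425). NFKB1 stood at 4.97 and 5.37 against 4.9 and 3.18 FPKM, and its log2 fold change of -0.31 was -0.06 without resistant replicate 2. RELA, the main activating subunit, stood at 4.48 and 3.38 against 3.74 and 3.75 FPKM, with overlap (log2 fold change -0.05 ± 0.20 SE). RELB, the subunit of the alternative pathway, stood at 3.92 and 3.51 against 3.87 and 2.26 FPKM, and only resistant replicate 2 lay outside the parental range. REL, known from lymphocytes, was the lowest at 1.12 and 1.14 against 1.41 and 1.3 FPKM. By mean FPKM the order was NFKB2, NFKB1, RELA, RELB and REL, and neighbours among the first 4 had overlapping values.

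In the I-kappaB family 1 member stood out. NFKBIZ, an atypical nuclear family member induced by interleukin and TLR signals that works as a coactivator for some NF-kappaB targets, stood at 0.411 and 0.5 FPKM in parental cells, against 4.12 and 2.34 FPKM in resistant cells. Both resistant libraries lay far above the parental ones, 7.1 times between the means (0.455 ± 0.0625 and 3.23 ± 1.26 FPKM, SD, n = 2 each), though they differed from each other. The log2 fold change was 1.51 ± 0.25 SE, with a limma adjusted p of 0.118 (0.0587 to 0.205 over the alternatives), and 2.54 with a pseudocount of 0.1. NFKBIZ has a value and passed the filter only through its resistant mean. The gene lies on chromosome 3 from 101827991 to 101861022.

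The classical inhibitors overlapped between groups. NFKBIA, which encodes the main inhibitor and is itself a known early target, was the most abundant member of the family, at 25.4 and 20.4 FPKM in parental and 20.7 and 34.5 FPKM in resistant libraries. Only resistant replicate 2 lay above the parental range, and without it the log2 fold change of 0.22 was -0.13. NFKBIB stood at 14.7 and 15.2 against 12.2 and 17.3 FPKM, and NFKBIE at 16.2 and 9.37 against 11.6 and 6.9 FPKM. The NFKBIE log2 fold change of -0.42 ran from -0.79 to -0.05 without single libraries. TNFAIP3, which encodes the ubiquitin-editing inhibitor A20 and is a known target too, was level at 1.21 and 0.851 against 1.05 and 1.03 FPKM (log2 fold change 0.01 ± 0.17 SE, which turned to -0.01 with a common sum of FPKM). NFKBID, another nuclear member, ranged from 0.483 to 0.793 FPKM and was not tested. NFKBIL1, a distant relative whose exons overlap ATP6V1G2 on the other strand, was lower in both resistant libraries at 17.2 and 12.8 against 22.6 and 20.9 FPKM (log2 fold change -0.52 ± 0.20 SE, limma adjusted p = 0.305, and -0.32 without resistant replicate 2).

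**Figure D3:**
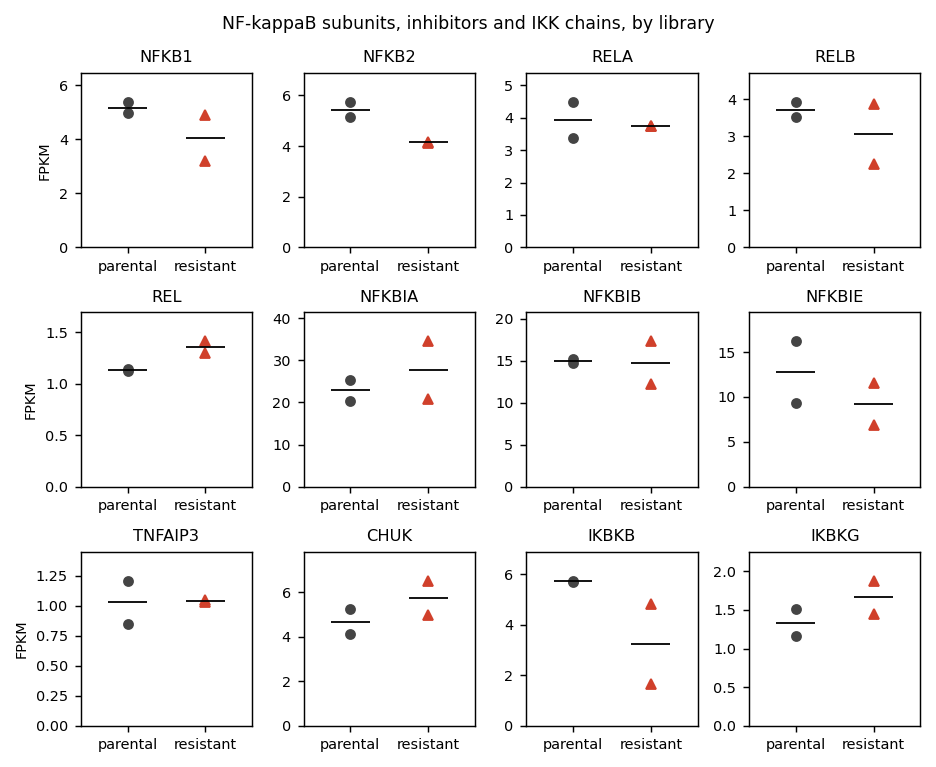
FPKM of the NF-kappaB subunits, 4 inhibitors and the chains of the I-kappaB kinase complex in each library (circles parental, triangles resistant, bars the group means, linear axes from 0). Most panels overlap between groups, and IKBKB at 4.81 and 1.65 FPKM in resistant cells shows how far those libraries can lie from each other.

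The I-kappaB kinase complex has the catalytic chains CHUK and IKBKB and the regulatory chain IKBKG. IKBKB stood at 5.75 and 5.7 FPKM in parental, 4.81 FPKM in resistant replicate 1 but 1.65 FPKM in replicate 2. Its log2 fold change of -0.78 ± 0.39 SE (limma adjusted p = 0.382) was -0.21 without resistant replicate 2 and -1.34 without resistant replicate 1, so its size rests on the second library. CHUK stood at 5.25 and 4.13 against 6.53 and 4.98 FPKM and IKBKG at 1.51 and 1.16 against 1.88 and 1.45 FPKM, both with overlap. IKBKG has a near-identical partial copy close by, and CHUK shares exon sequence with ERLIN1 in release 29, so these levels are less certain. The related kinase IKBKE, which acts in interferon induction, overlapped at 2.12 and 3.16 against 3.48 and 2.09 FPKM.

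Among the adaptors TRAF2 and TRAF3IP2 lay lower in both resistant libraries, and the kinase IRAK4 lay higher. TRAF2, an adaptor of TNF receptors, stood at 11.9 and 8.53 FPKM in parental and 5.31 and 5.21 FPKM in resistant libraries (log2 fold change -0.83 ± 0.22 SE, limma adjusted p = 0.202). TRAF3IP2, the adaptor of the interleukin 17 receptor, stood at 4.77 and 3.89 against 2.62 and 1.19 FPKM (log2 fold change -0.92 ± 0.29 SE, limma adjusted p = 0.251, and -0.55 without resistant replicate 2). The receptor chains IL17RA and IL17RC that it binds lay on the other side, as given above. IRAK4, the first kinase after interleukin 1 and TLR receptors, stood at 0.998 and 1.09 against 3.12 and 1.89 FPKM (log2 fold change 0.76 ± 0.22 SE, limma adjusted p = 0.228), and its value was 1.15 with a pseudocount of 0.1 and 0.50 without resistant replicate 1.

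The kinase IRAK1 stood at 2.85 FPKM in parental replicate 1 and at 7.63 to 9.71 FPKM in the other libraries, so its log2 fold change of 0.45 was -0.29 without that library. TRAF7, an atypical family member known from meningioma, was the most abundant adaptor at 22.8 and 19.8 against 17 and 13.8 FPKM (log2 fold change -0.45 ± 0.19 SE, limma adjusted p = 0.328). TRAF4, TRAF5 and TRAF6 stood at 3.98, 3.52 and 1.5 FPKM in resistant replicate 2, against 8.63, 6.81 and 2.95 FPKM in replicate 1, with the parental libraries between these or above. In each of these 3 genes resistant replicate 2 was the lowest of the 4 libraries. TRAF3, a brake on the alternative pathway, stood at 2.79 FPKM in resistant replicate 1 and 1.54 to 1.58 FPKM in the others. The ciliary protein TRAF3IP1 overlapped, and IRAK1BP1, at 0.6 to 0.955 FPKM, was not tested.

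The spread differed by library. Against the parental mean, the 14 tested adaptors and kinases had a median of 0.15 in resistant replicate 1 but -0.38 in replicate 2, and that of the 5 subunits -0.05 and -0.32. Over all genes it was -0.01 and -0.16. The tested signal proteins were lower in resistant replicate 2 than in resistant replicate 1 in 21 of 28 cases, beside 66.1% of all genes. The ligand median was 0.35 and 0.25 in the same libraries. Over the tested members the median gap between replicates on the log2 scale was 0.15 in parental and 0.40 in resistant libraries, and over all genes 0.13 and 0.29.

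**Figure D4:**
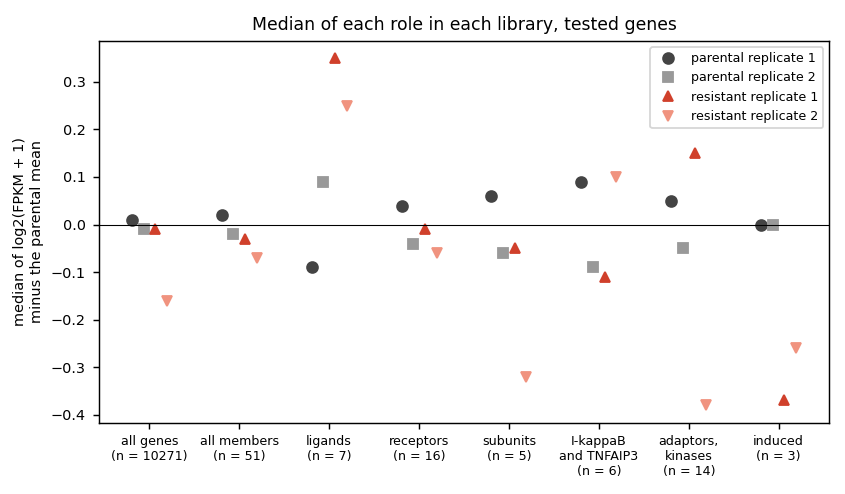
Median over the tested genes of each role of log2(FPKM + 1) minus the parental mean, in each of the 4 libraries, with the number of genes under each role. Ligands lie above 0 in both resistant libraries (0.35 and 0.25), while subunits, adaptors and kinases lie low mainly in resistant replicate 2 (-0.32 and -0.38).

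Of the induced genes, ICAM1, an adhesion molecule for leukocytes and a known target of NF-kappaB, stood at 13.9 FPKM in both parental libraries and at 10.5 and 7.89 FPKM in resistant cells. It was lower in both, on the other side from CXCL8, CXCL1 and CCL2 (log2 fold change -0.56 ± 0.20 SE, limma adjusted p = 0.282, and -0.37 without resistant replicate 2). TNFAIP8L1 was lower as well, at 2.26 and 3.54 against 4.38 and 4.21 FPKM (log2 fold change -0.46 ± 0.23 SE, and -0.22 without resistant replicate 1), and its exons overlap the more abundant MYDGF on the other strand. TNFAIP1, an adaptor of a ubiquitin ligase, overlapped at 7.82 and 8.32 against 7.89 and 6.57 FPKM.

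Other genes of the pathway, taken from 4 lists, did not pass either. Of 66 signalling partners 41 were tested, with 1 higher and 1 lower at an unadjusted limma p under 0.05 (4.88% of them, against 16.2% of all genes) and a median log2 fold change of 0.01. These were EDA2R, a receptor for ectodysplasin, at 0.797 and 0.954 against 2.81 and 1.75 FPKM, and PELI3, a ubiquitin ligase that acts on IRAK proteins, at 3.7 and 2.19 against 1.14 and 0.726 FPKM. EDA2R passed the filter only through its resistant mean (2.28 FPKM, parental 0.875 FPKM). Of 40 further known NF-kappaB targets 21 were tested, with 3 higher and 4 lower at that p (33.3% of them, against the same 16.2%) and a median of 0.00. MMP1, a collagenase, was listed at 0 and stood at 0.213 FPKM in parental and at 3 and 9.25 FPKM in resistant libraries (limma adjusted p = 0.131), and CD83 was lower at 15.5 and 15.4 against 9.25 and 7.83 FPKM (limma adjusted p = 0.166). MMP1 has a value and passed the filter only through its resistant mean (6.12 FPKM, parental 0.106 FPKM), and it is counted in the 33.3%. SOD2, a mitochondrial target enzyme picked after its values were seen, ranged only from 0.674 to 0.792 FPKM and was not tested. Of the other untested targets, MMP3 was listed at 0 in both parental libraries and stood at 2.51 and 1.44 FPKM in resistant ones. PTGS2 stood at 0.108 and 0.15 against 1.4 and 0.802 FPKM, and IRF1 at 0.358 and 0.357 against 0.62 and 0.515 FPKM. All of these lay higher in both resistant libraries but have a value only through their resistant means, while F3 overlapped.

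Of 48 genes of cytokine receptor signalling 32 were tested, with 3 higher and 2 lower at an unadjusted limma p under 0.05 (15.6% of them, beside 16.2% of all genes) and a median of -0.04. The interferon gamma receptor chain IFNGR2 stood at 9.77 and 8.45 against 12.8 and 17.1 FPKM (limma adjusted p = 0.261). Of 34 chemokine receptors and related genes 7 were tested, none of them a receptor (CX3CL1, CKLF, CMTM3, CMTM4, CMTM6, CMTM7 and CMTM8). Of these, 1 was higher and 2 lower at that p (42.9% of these few), with a median of -0.11. The receptors CXCR4 (0 and 0.137 against 0.255 and 0.835 FPKM) and CCR10 (0.452 and 0.517 against 0.754 and 1.25 FPKM) were not tested. The 2 tested genes with the smallest p were CMTM3 (2.14 and 2.83 against 5.64 and 6.4 FPKM) and the membrane chemokine CX3CL1 (1.68 and 1.25 against 0.631 and 0.61 FPKM). CX3CL1 passed the filter only through its parental mean (1.47 FPKM, resistant 0.621 FPKM). The receptors CXCR1 and CXCR2 that bind CXCL8 were not analysed here.

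The pigment cell markers PMEL, MLANA, TYR, TYRP1, SOX10, MITF and PAX3 were present in all 4 libraries, with MITF lowest at 9.64 FPKM in resistant replicate 1, and DCT stood at 4.88 and 5.46 against 0.486 and 0.517 FPKM. Cytokine genes are also typical of other cells. Of 14 leukocyte markers 4 had a value, and their summed FPKM came to 33.1 and 28.2 in parental cells, against 14.3 and 13.2 in resistant cells, most of it from CD68 and LCP1. The markers PTPRC, CD3D, CD3E, MS4A1, LYZ, CD14, CSF1R, LAPTM5, FCER1G and TYROBP had no value. The low CORO1A was higher in both resistant libraries (0.388 and 0.386 against 0.746 and 0.975 FPKM), and CD79A overlapped (0.158 and 0.382 against 0.301 and 1.56 FPKM). Both have a value only through their resistant means (0.86 and 0.928 FPKM, parental 0.387 and 0.27 FPKM). Of 6 endothelial markers 0 had a value, and of 9 fibroblast markers 3 did, with a summed FPKM of 5.2 and 6.01 in parental cells, against 9.59 and 7.34 in resistant cells. Most of it came from LUM, which overlapped between groups (4.45 and 5.16 against 7.69 and 4.92 FPKM). The lower COL1A1 (0.742 and 0.841 against 1.16 and 1.89 FPKM) and COL1A2 (0.00848 and 0.00683 against 0.747 and 0.531 FPKM) were higher in both resistant libraries. The part of other cells in the values above was not tested. In bulk samples fewer cells with a transcript and less of it in each cell cannot be told apart.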

How the data were processed

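RNA of 2 parental and 2 resistant libraries was analysed from the deposited FPKM values, 1 per gene and library, per the file headers. Per the labels' protocols the libraries were stranded (dUTP method) after poly(A) enrichment or ribosomal RNA removal. The build was hg38, per the submitters' processing notes, although 11551 identifiers carry a suffix of the kind used for annotation mapped to GRCh37, so the build is uncertain. The aligner, FPKM program, annotation and use of strand were not given in the sources used here. Among the genes, the larger group mean was never below 0.5009 FPKM, and genes below that have no value here. Of 11650 identifiers, 11596 were found in GENCODE release 29, whose GRCh38 positions are printed, and 11575 in a table of current symbols. The sum of FPKM was 282602 to 293481. Depth is unknown: low values of single-transcript genes showed no clear step (at most 5 genes in a window of 1%).

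Values were transformed as log2(FPKM + 1), and genes averaging 1 FPKM or more were tested two-sided with limma (version 3.58.1, R 4.3.3), using a mean-variance trend and Benjamini-Hochberg adjustment at 0.05. Fold changes on this scale understate those of low genes. With 2 libraries against 2, the smallest p of an exact permutation test is 0.333. As separate cultures are not stated, p-values reflect the spread between libraries alone, and that may be technical. The test was checked on simulated data. Motifs and figures were made in Python 3.11.15.

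Members and lists were chosen with earlier results of these data known. The rule for naming took all subunits, I-kappaB genes and inhibitors, I-kappaB kinases and CHUK, per other role up to 8 members with the largest fold change among those whose groups did not overlap and the 2 of highest mean, members past the threshold, and in each further list the 2 genes with the smallest p where none passed. All other members named, such as CXCL1 and IL13RA2, were picked after their values were seen. The 12 alternatives changed the pseudocount, filter, scaling, variance trend or block, or left out a library. A gene that this rule names in the list of cytokine receptor signalling is not reported here.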

Additional observations from a re-analysis of the deposited data

How the results depend on the processing

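With 2 libraries a group and an unknown depth, differences under about the replicate gap could not be resolved, and members near 1 FPKM are the least certain. No member passed the threshold under any of the 12 alternatives. Among the fits that kept all 4 libraries, the lowest limma adjusted p of a member was 0.0788 (CXCL8). The count of all genes past the threshold ran from 0 to 30 when single libraries were left out. The count of members at an unadjusted limma p under 0.05 ran from 3 to 20 (5.88% to 39.2%, beside 6.81% to 35.4% of all genes), and was 5 of 21 at a minimum mean of 5 FPKM (23.8%, beside 957 of 5632 genes). The median of the ligands was 0.44 with a pseudocount of 0.1 and 0.38 with median-of-ratios scaling, and ran from 0.25 to 0.35 without single libraries. At a minimum of 5 FPKM TNFSF9 was the only ligand left, so the value of -0.03 is that of a single gene. The median of the signal proteins was -0.31 at that minimum and -0.09 with median-of-ratios scaling, and ran from -0.24 without resistant replicate 1 to -0.04 without resistant replicate 2. Over all members it was -0.12 to -0.03 without single libraries. Across genes, the difference between replicates 1 and 2 in parental libraries correlated at -0.0709 with that in resistant libraries. With 1 such difference per group, this cannot show whether samples of the same number were handled together. With the replicate number as a block, 8 members had an unadjusted limma p under 0.05 (15.7%, beside 14.4% of all genes) and 5 genes passed. Of the fold changes recomputed for single genes, 641 kept their direction and side of the threshold. The other 31, all of genes that did not pass, changed sign or, as for TRAF4, only reached 0 when rounded. With median-of-ratios scaling, it was 0.06 for NFKBIB, 0.04 for RELA and 0.06 for TNFSF9. With quantile normalization, it was 0.06 for NFKBIB, 0.02 for RELA and 0.04 for TNFSF9. With a common sum of FPKM, it was -0.01 for TNFAIP3. Without single libraries, the value ran from -0.22 to 0.31 for IKBKE, -0.44 to 0.28 for IL12RB2, -0.06 to 0.40 for IL13RA1, -0.28 to 0.39 for IL27RA, -0.05 to 0.42 for IL4R, -1.32 to 0.16 for IL6R, -0.07 to 0.71 for IL6ST, -0.29 to 1.19 for IRAK1, -0.13 to 0.58 for NFKBIA, -0.28 to 0.20 for NFKBIB, -0.21 to 0.11 for RELA, -0.53 to 0.05 for RELB, -0.11 to 0.14 for TNFAIP3, -0.30 to 0.25 for TNFSF9, -0.00 to 0.57 for TRAF3, -0.41 to 0.12 for TRAF3IP1, -0.95 to -0.00 for TRAF4, -0.60 to 0.19 for TRAF5 and -0.54 to 0.12 for TRAF6. The cause was not tested.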
